A study of Mus musculus with 63 samples.

Results

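The genes coding for collagen chains were taken as all array probes whose single symbol in the platform annotation reads Col, a number, the letter a and a number. The rule found 62 probes for 38 genes, of 28049 probes in all, and 20925 of those probes carried 1 symbol (14541 genes). No collagen probe carried several symbols, and each had values on at least 57 of the 63 arrays. By the known class of the chain, 19 probes of 10 genes read fibrillar chains and 17 probes of 10 genes read chains of the basement membrane zone. FACIT chains, which attach to fibrils and carry interrupted helices, were read by 9 probes of 7 genes, beaded filament chains by 7 probes of 5 genes, short chains by 4 probes of 3 genes and transmembrane chains by 6 probes of 3 genes. All 62 probes were tested in every comparison.

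Collagens are proteins of the extracellular matrix built from chains that wind around each other in a helix. Fibrillar collagens (types I, II, III, V, XI, XXIV and XXVII) assemble into the fibrils of dermis, bone and cartilage, and in skin types I, III and V are made mainly by dermal fibroblasts. In the basement membrane zone under the epidermis, type IV chains form a sheet-like network, collagen XVII is a transmembrane protein of the hemidesmosome that anchors basal keratinocytes, collagen VII forms the anchoring fibrils below, and collagens XV and XVIII carry sugar chains. Col7a1 and Col17a1 were counted with this zone for their place in it.

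The samples were keratinocytes from newborn CD-1 mouse skin, with a total knock-out of the epidermal growth factor receptor gene Egfr (KO) or wild type (WT), either transduced with the v-rasHa oncogene by a retrovirus from Psi-2 producer cells and kept for 4 days (ras) or mock-treated. Ras cells of both genotypes and WT mock cells were also treated with 1 of 3 inhibitors of the EGFR kinase, namely AG1478, erlotinib (Tarceva) and PD153035, at 1 µM for 2 h. Each array set RNA of 1 sample against Universal Mouse Reference RNA, a pool from mouse cell lines, and values are log2 ratios of sample over that pool, with the log base assumed. There were 6 samples of KO ras with AG1478, 4 of KO ras with erlotinib, 5 of KO ras with PD153035, 5 of KO ras and 3 of KO mock. Of WT there were 5 samples each of ras with AG1478, with erlotinib and with PD153035, 5 of ras, 5 each of mock with AG1478, with erlotinib and with PD153035, and 4 of mock. The design text speaks of biological replicates without saying which animals or cultures they came from, so a p-value here measures the spread among samples, part of which may be technical.

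Egfr, the targeted gene, did not separate the genotypes. Its first probe spanned 0.22 to 2.77 with a median of 2.03 in 23 KO samples, against 0.43 to 3.60 with a median of 2.27 in 39 WT samples, and its second probe had medians of 0.42 in KO and 1.05 in WT. Over 6 comparisons of KO with WT, the adjusted p of the 2 probes ran from 0.291 to 0.975 (limma). The position of the probes relative to the deletion is not known here, and genotype rests on the labels. The mean of 24 probes for keratinocyte markers lay between 1.67 and 4.86 in all samples, and that of 39 fibroblast marker probes is given beside the results. Repeats 3 and 4 of KO ras with AG1478 ran against their labelled dye order and were turned by their likeness to the other arrays. Most collagen calls that use this group are also given with the labelled order. Col25a1 and Col4a6 in the mean of the inhibitors, and the called marker, partner and enzyme genes that are named, are given without it. Counts by the labelled order are given without the share of all probes. Experiment numbers in the labels fall into 8 runs of unstated meaning, and KO mock stands alone in run 4.

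The highest ratios among the collagens were those of Col17a1, whose 2 probes were above the pool in all 62 samples, with medians of 5.60 (1.76 to 9.07) and 5.34 (2.63 to 7.94). Col7a1 was above it in 60 and 57 samples, with medians of 2.30 and 1.54, and the first Col18a1 probe in 57 samples with a median of 1.15. The 3 probes of Col4a6, a type IV chain, were above it in 55, 55 and 57 samples, while Col4a1 and Col4a2, the most widespread type IV chains, were below it in 59 and 58 samples with medians of −1.06 and −0.91. Of the 17 basement membrane probes, 6 were above the pool in at least 90 percent of samples and 3 below it. Among all probes of the array the shares were 12.4 percent above and 17.6 percent below. A ratio to the pool is set by both RNAs, so ratios of different genes do not rank their levels in keratinocytes.

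The fibrillar chains sat lower. Col3a1 was below the pool in 57 of 59 samples by one probe (median −2.16) and in all 62 by the other (−5.24), Col1a2 in 61 samples (−2.47) and Col1a1 in 55 samples (−0.89). Col5a1, which starts and limits fibril growth, lay on both sides, in 37 samples above and 25 below, and the 3 probes of its partner chain Col5a2 were above in 46, 53 and 44 samples. Over the 19 fibrillar probes, 1 was above the pool in at least 90 percent of samples (the second Col11a1 probe) and 3 below, and the median of the probe medians was −0.11, against 0.50 for the basement membrane chains. Of the beaded filament chains, 2 of the 3 Col6a1 probes were below the pool in all samples (medians −1.92 and −2.64) and Col6a2 in 61. Both probes of the short chain Col8a1, a network-forming collagen of vessel walls and cornea, were above it in all 62 samples, with medians of 3.55 and 2.83. The spread within groups was wide, with a median residual SD over the 62 probes of 0.67, against 0.58 over all probes.

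**Figure D1:**
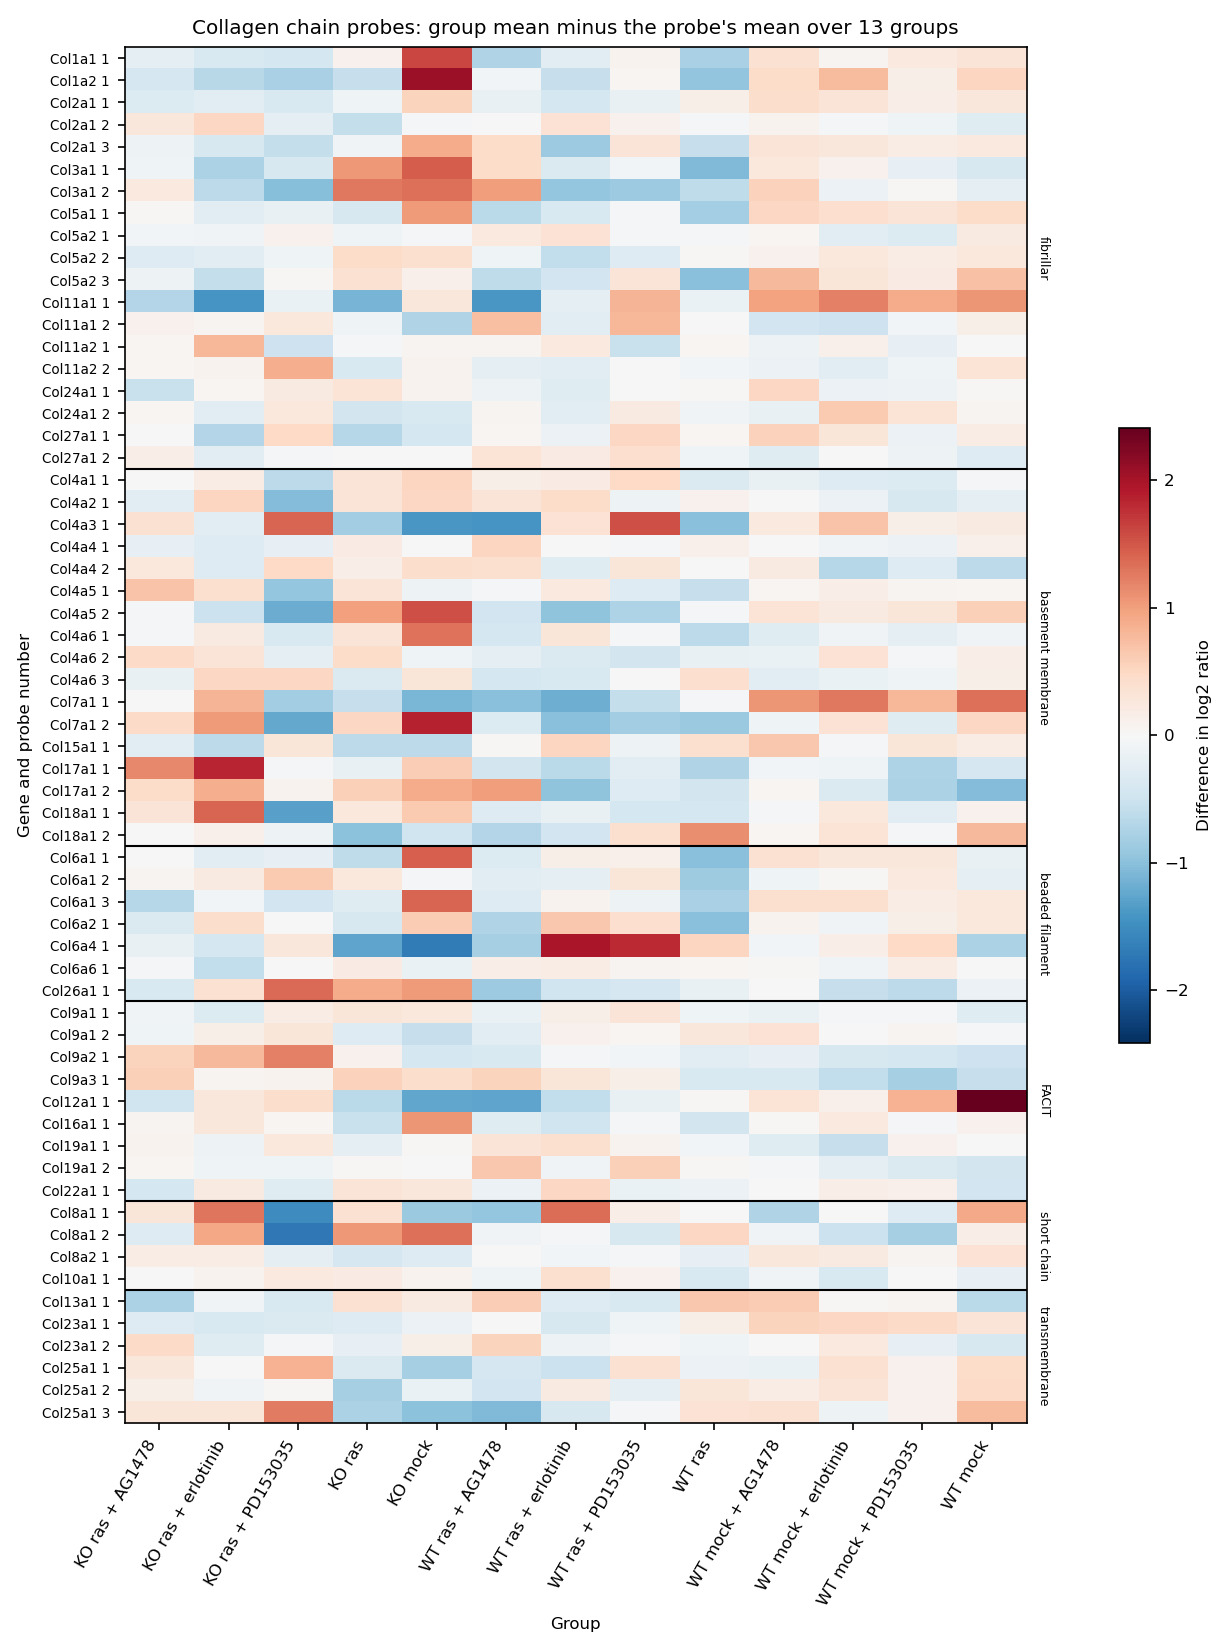
Group means of all 62 collagen probes (rows, by chain class; the number after the gene is the probe) in the 13 groups (columns), each minus the probe's mean over the groups; colour is the difference in log2 ratio, red above and blue below. Several fibrillar and beaded filament chains (Col1a1, Col1a2, Col3a1, Col5a1 and probe 1 of Col6a1) are reddest in KO mock. Col8a1, probe 1 of Col18a1 and Col4a2 are blue in KO ras with PD153035.

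Promoter windows from RefSeq (build GRCm38.p6) existed for 30 of the 38 genes, 33 windows in all. The 250 bases before the start are shown for the 3 genes called lower with ras in KO cells and for Col17a1, the collagen with the highest ratios, with capitals marking the TATA box (TATAAA), the CCAAT box (CCAAT or its reverse, ATTGG), the GC box (GGGCGG) and the AP-1 motif (TGANTCA) on either strand.
Col16a1 (chr4:130047590-130047839, plus strand): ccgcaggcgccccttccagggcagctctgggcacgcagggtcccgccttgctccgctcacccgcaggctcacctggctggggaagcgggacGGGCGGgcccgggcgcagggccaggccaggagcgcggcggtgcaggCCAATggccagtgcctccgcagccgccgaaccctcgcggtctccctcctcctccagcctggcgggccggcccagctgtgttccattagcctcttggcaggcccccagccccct
Col1a2 (chr6:4505368-4505617, plus strand): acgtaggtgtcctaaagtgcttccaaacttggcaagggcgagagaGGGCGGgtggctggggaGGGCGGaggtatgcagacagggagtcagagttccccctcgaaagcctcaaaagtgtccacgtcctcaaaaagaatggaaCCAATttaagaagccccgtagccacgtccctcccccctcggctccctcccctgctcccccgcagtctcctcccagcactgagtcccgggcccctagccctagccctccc
Col6a1 (chr10:76726045-76726294, minus strand): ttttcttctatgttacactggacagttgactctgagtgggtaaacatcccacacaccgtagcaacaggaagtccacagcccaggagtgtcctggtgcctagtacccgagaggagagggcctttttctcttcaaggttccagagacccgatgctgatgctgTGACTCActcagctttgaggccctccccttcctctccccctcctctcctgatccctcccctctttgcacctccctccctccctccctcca
Col17a1 (chr19:47692043-47692292, minus strand): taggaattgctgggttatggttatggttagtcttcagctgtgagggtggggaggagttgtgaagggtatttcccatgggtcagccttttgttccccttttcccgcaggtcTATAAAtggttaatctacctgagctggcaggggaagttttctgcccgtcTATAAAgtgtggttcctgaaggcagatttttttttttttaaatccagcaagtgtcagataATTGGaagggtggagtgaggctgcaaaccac
The GC box stood in 60.6 percent of the collagen windows (20 of 33), against 32.7 percent of all 32851 windows. A CCAAT box stood in 12 of 33, or 36.4 percent, against 33.8 percent of all, and a TATA box in 5, or 15.2 percent, against 12.4 percent. The AP-1 motif, bound by Fos and Jun proteins, stood in 1 of the 33 (3.03 percent; 6.75 percent of all), that of Col6a1, at −90 to −84 from the start. Col4a1 and Col4a2 start 21 bases apart on opposite strands of chromosome 8, and Col4a5 and Col4a6 start 1343 bases apart on opposite strands of the X chromosome. These matches describe letters in the windows and were not tested against the ratios.

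In KO cells, 3 collagen probes were lower with ras than with mock: Col16a1, a FACIT chain found near fibrils and the basement membrane of skin, Col1a2, the second chain of collagen I, and Col6a1, a chain of the microfibrils of collagen VI. Of all probes 0.539 percent were called in that comparison, 0.449 percent lower and 0.0892 percent higher, and no collagen was called higher. Col16a1 measured −1.60, −1.77, −0.94, −0.004 and −0.81 in KO ras, against 0.51, 0.48 and 0.73 in KO mock. All 5 ras samples lay below all 3 mock samples, a log2 difference of −1.71 ± 0.29 (SE; adjusted p = 0.000458, limma). Col1a2 measured −2.86, −1.58, −2.62, −2.47 and −4.40 in KO ras, against −1.13, 1.34 and −0.68 in KO mock. The groups did not overlap, and the difference was −2.69 ± 0.66 (adjusted p = 0.0344, limma). The first Col6a1 probe measured −2.87, −2.14, −1.97, −1.93 and −3.84 in KO ras, against −0.42, −0.48 and −0.59 in KO mock. It too did not overlap and differed by −2.01 ± 0.50 (adjusted p = 0.0402, limma).

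KO mock shares no run with KO ras, so run and group cannot be told apart here. With run as a random block none of the 3 was called (adjusted p = 0.133 for Col16a1, 0.642 for Col1a2 and 0.851 for Col6a1, limma), with differences of −1.62, −2.77 and −2.02. When any 1 sample of the 8 was left out, Col16a1 stayed called in all 8 fits, Col1a2 in 3 and Col6a1 in 2. Without the second KO mock sample, whose array correlated poorly with the rest, Col1a2 differed by −1.94 (adjusted p = 0.335, limma), and without the first, Col6a1 had an adjusted p of 0.202. Of 39 fibroblast marker probes none was called in the comparison, 19 were higher and 20 lower, and their sample means ran from −1.31 to 0.05 in KO ras and from −0.65 to −0.27 in KO mock. The keratinocyte marker Krt15 was called lower with ras. The part of these markers in these differences was not tested.

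Other chains of the same fibrils stood in the same order without passing the test. Col5a1 measured −0.21, 0.18, −0.26, 0.21 and −1.25 in KO ras, against 1.38, 0.96 and 1.06 in KO mock, a difference of −1.46 ± 0.39 (adjusted p = 0.0652, limma). Col1a1, the first chain of collagen I, measured −0.72, −0.21, −0.37, −0.61 and −1.69 in KO ras, against 0.37, 1.29 and 0.65 in KO mock (−1.54 ± 0.61, adjusted p = 0.474, limma). Neither gene's groups overlapped. The third Col6a1 probe gave −1.79 ± 0.60 (adjusted p = 0.258, limma), and the second, which tracks it weakly, was near 0 in both groups, with means of −0.04 in KO ras and −0.31 in KO mock. Over the fibrillar class 1 of 19 probes was called, with 8 positive and 11 negative differences and a median of −0.36. Over the basement membrane class 0 of 17 were called, with 5 positive and 12 negative differences and a median of −0.19. The median over all 62 was −0.13, and over all probes tested 0.01.

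In WT cells no collagen was called between ras and mock, and 0.183 percent of all probes were (limma). An unadjusted p under 0.05 was seen for 9 of 62 collagen probes, and for 1862 of all 27859. Col5a1 measured −0.37, 0.02, −0.50, −0.57 and −2.08 in WT ras, against 0.71, 0.06, 0.97 and 0.49 in WT mock, without overlap (−1.28 ± 0.36, adjusted p = 0.223, limma). Col1a2 measured −4.43, −1.67, −1.86, −3.34 and −4.53 in WT ras, against −1.97, −1.68, −0.70 and −2.49 in WT mock, and these overlap (−1.49 ± 0.61, adjusted p = 0.629, limma). Col16a1 measured −0.59, −0.57, −1.17, −0.48 and −1.84 in WT ras, against −0.07, −0.45, −0.39 and −0.64 in WT mock, also with overlap (−0.58 ± 0.27, adjusted p = 0.699, limma). Among the fibrillar probes 3 differences were positive and 16 negative, with a median of −0.22, and among the basement membrane probes 7 were positive and 10 negative, with a median of −0.33.

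The ras effect itself was tested between the genotypes. No collagen differed, and 0.0108 percent of all probes did (limma). Of 62 collagen probes 3 had an unadjusted p under 0.05, as did 1644 of all 27852. For Col16a1 the ras effect in KO minus that in WT was −1.13 ± 0.39, with a 95% interval of −1.91 to −0.34 (adjusted p = 0.617, limma). For Col1a2 it was −1.21 ± 0.90 (−3.01 to 0.60) and for the first Col6a1 probe −1.20 ± 0.68 (−2.57 to 0.17). The calls in KO alone therefore do not show a ras effect that differs by genotype.

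**Figure D2:**
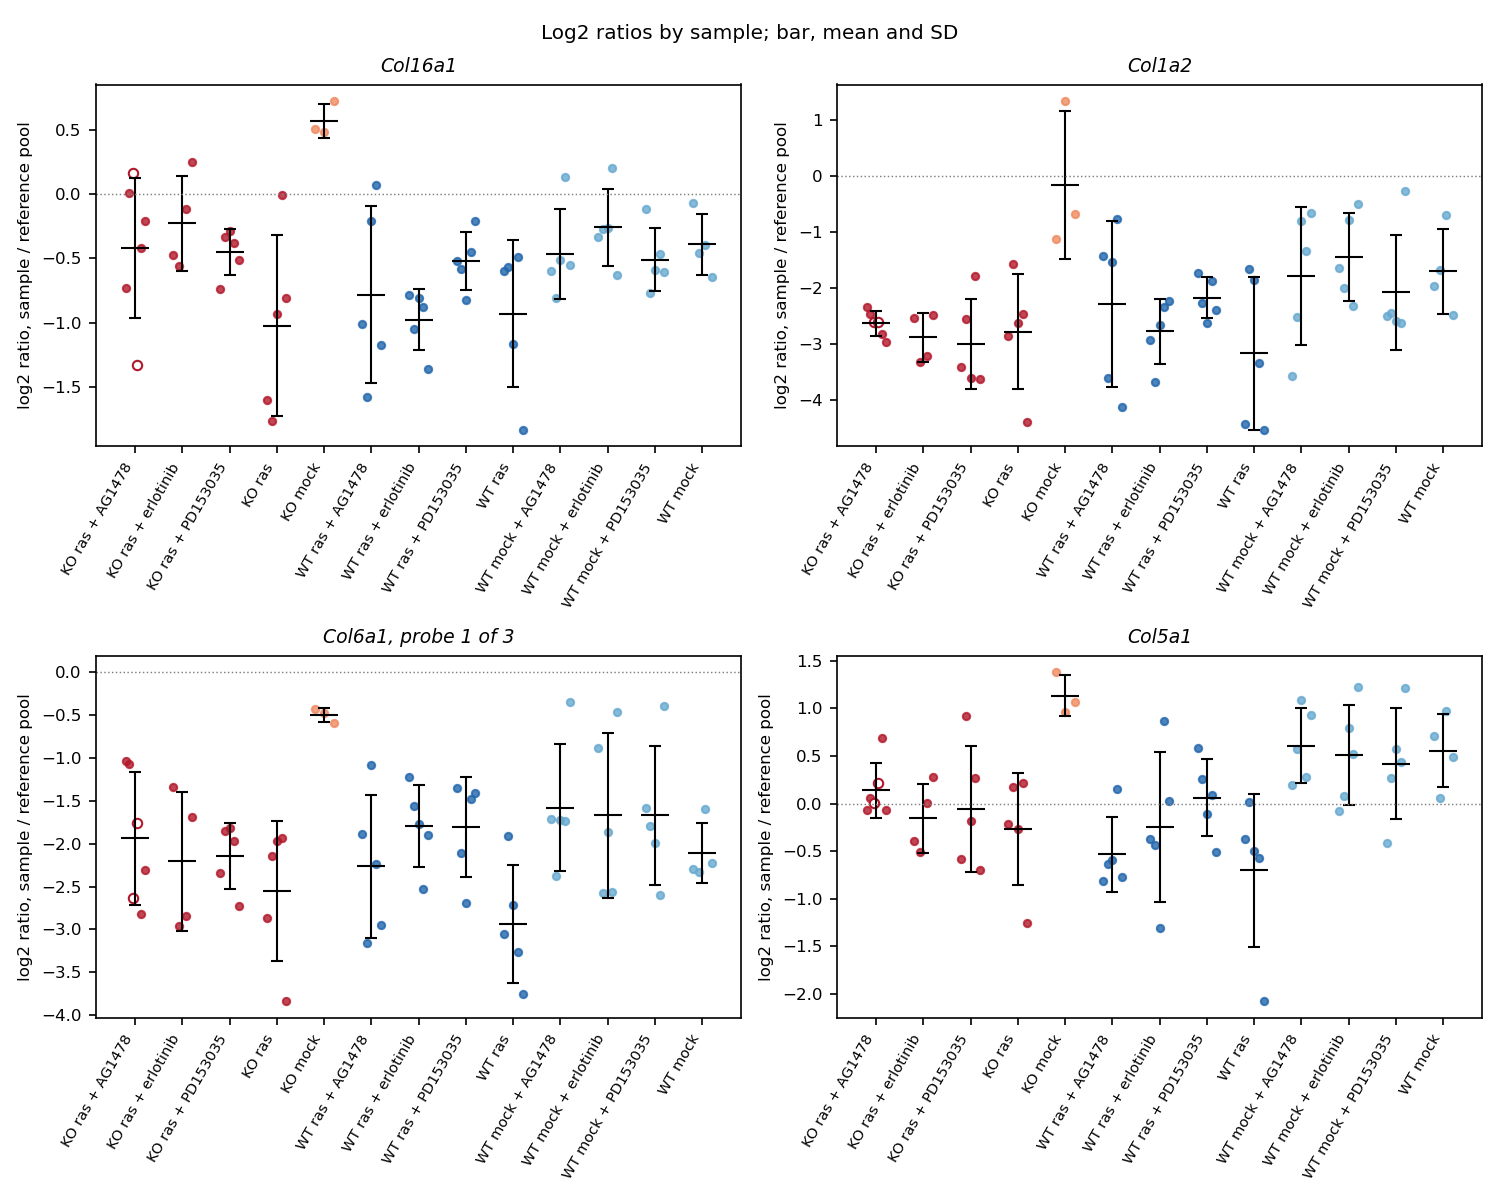
Log2 ratios to the reference pool of Col16a1, Col1a2, Col6a1 (probe 1 of 3) and Col5a1 in every sample of the 13 groups; points are samples, open points the 2 arrays of disputed dye order, and bars the mean with the SD. KO mock is the highest group for each of the 4 probes, and Col16a1 in KO mock sits between 0.48 and 0.73 while all 5 KO ras samples are below 0.

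Without ras, no collagen was called between KO mock and WT mock, and 1.11 percent of all probes were (limma). An unadjusted p under 0.05 was seen for 13 of 62 collagen probes, and for 4945 of all 27913. Col16a1 had the smallest p, and its KO mock values above lay over all 4 WT mock samples (1.03 ± 0.30, adjusted p = 0.0668, limma). The first Col6a1 probe, at −0.42, −0.48 and −0.59 in KO mock, against −2.30, −2.33, −1.59 and −2.23 in WT mock, differed by 1.59 ± 0.53 (adjusted p = 0.101, limma). The first Col7a1 probe measured 1.22, 1.75 and 0.42 in KO mock, against 3.34, 5.08, 3.57 and 2.23 in WT mock (−2.39 ± 0.74, adjusted p = 0.0816, limma). Its second probe pointed the other way, with means of 3.56 in KO mock and 2.21 in WT mock, so the 2 probes of this gene disagree. Col12a1, a FACIT chain of dermis and tendon, measured 0.13, 0.09 and 0.87 in KO mock, against 4.84, 4.63, 3.31 and 3.35 in WT mock (−3.45 ± 1.15, adjusted p = 0.105, limma). All 4 of these sets of values were without overlap, which was not counted over all probes. The 2 groups come from different runs, which cannot be told apart from genotype. Of 24 keratinocyte marker probes 4 were called higher in KO mock (Krt14, Krt15 and 2 of Krt10), with a median of 1.42, and of 39 fibroblast marker probes none was called, 29 were higher and 10 lower, with a median of 0.28 and sample means of −0.65 to −0.27 in KO mock and −0.91 to −0.73 in WT mock. Their part was not tested. Among the basement membrane partners Fras1 (2.54 ± 0.58) and agrin (Agrn, 1.21 ± 0.30) were called higher in KO mock.

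With ras, 1 collagen probe was called between KO and WT, the second probe of Col18a1, against 1.92 percent of all probes. It measured −1.69, −2.55, −1.69, 2.02 and 0.04 in KO ras, against 0.53, 1.35, 0.73, 2.19 and 1.92 in WT ras, a difference of −2.12 ± 0.52 (adjusted p = 0.0249, limma). The groups overlap, and the low values are the 3 KO ras arrays of run 3, while the other KO ras arrays are from runs 5 and 6. KO ras and WT ras share no run, so run and genotype cannot be told apart, and with run as a random block it was not called (−1.88, adjusted p = 0.347, limma). The call was also lost in 4 of 10 fits with 1 sample left out, those without the fifth WT ras sample or any 1 of the 3 arrays of run 3, with an adjusted p of up to 0.112 (limma). The first probe of the gene had means of 1.47 in KO ras and 0.79 in WT ras, the opposite order (0.68 ± 0.40, adjusted p = 0.399, limma). The first Col3a1 probe measured −0.19, −0.89, −0.16, −2.06 and −1.62 in KO ras, against −2.82, −2.59, −1.05, −3.63 and −5.38 in WT ras (2.11 ± 0.61, adjusted p = 0.0547, limma), and these overlap. The 13 positive and 4 negative differences of the basement membrane probes had a median of 0.56, and the 10 positive and 9 negative ones of the fibrillar probes a median of 0.12, while all probes had a median of 0.01. Of the fibroblast marker probes 26 were higher and 13 lower with none called, with a median of 0.45, and of the keratinocyte marker probes 1 was called higher (Krt10, 2.65 ± 0.60), as was the muscle marker Acta2. Their part was not tested. Among the basement membrane partners 4 probes were called higher, for perlecan (Hspg2, 1.14 ± 0.33 and 1.39 ± 0.23), which binds collagens IV and XVIII in that layer, and for the hemidesmosome linkers Plec (1.11 ± 0.31) and Dst (1.50 ± 0.33). The collagen receptor Ddr1 (1.08 ± 0.31), the metalloproteinase inhibitor Timp3 (1.10 ± 0.29 and 1.72 ± 0.34) and the collagen lysyl hydroxylase Plod1 (1.28 ± 0.36) were also called higher.

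In ras cells under inhibitor the genotypes shared runs 5 and 6 with erlotinib and run 8 with PD153035. With AG1478 all KO samples were from run 8 and the WT samples from runs 7 and 8, so runs were shared only in part. With erlotinib, the first probe of Col18a1, the source of endostatin, measured 3.48, 2.29, 2.78 and 1.92 in KO, against 0.19, 1.52, 1.29, 0.80 and 1.41 in WT. All KO samples lay above all WT samples (1.60 ± 0.43, adjusted p = 0.0497, limma), and this was the 1 collagen called, where 0.967 percent of all probes were. With run as a fixed block the adjusted p was 0.0255, and over all the alternatives other than leaving out single samples it ran from 0.00357 to 0.173. With 1 sample left out it lost the call in 8 of 9 fits, all but that without the second WT sample, with differences of 1.34 to 1.75 and an adjusted p of up to 0.173 (limma). The gene's second probe gave 0.54 ± 0.55 (adjusted p = 0.682, limma). With AG1478 no collagen was called, where 2.22 percent of all probes were (limma), and by the labelled dye order 4 collagens were. Of 62 collagen probes 7 had an unadjusted p under 0.05 with AG1478, as did 4262 of all 27750. With PD153035 no collagen was called, where 1.38 percent of all probes were (limma). With this inhibitor 10 of 62 collagen probes had an unadjusted p under 0.05, as did 2904 of all 27934. The smallest adjusted p there was that of Col26a1 (0.0541), given below, followed by Col4a2, which measured −2.31, −1.65, −1.76, −1.50 and −2.46 in KO, against −0.93, −1.20, −1.08, −0.80 and −1.02 in WT, without overlap (−0.93 ± 0.27, adjusted p = 0.0585, limma). Of 38 fibroblast marker probes 5 were called lower in KO with PD153035, with a median of −0.57, and none with AG1478 or erlotinib (limma), and 1 of 24 keratinocyte marker probes was called higher with each inhibitor. With erlotinib 12 of 13 melanocyte marker probes had positive differences, with a median of 1.44 and none called (limma). Their part was not tested.

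Averaged over the 3 inhibitors, 6 collagen probes differed between KO and WT ras cells, 9.68 percent of the 62, against 6.48 percent of all probes tested (2.98 percent higher and 3.49 percent lower). Higher in KO were Col9a2, a FACIT chain of cartilage (1.00 ± 0.26, adjusted p = 0.0101), Col26a1 (1.03 ± 0.29, adjusted p = 0.0185), the third probe of Col25a1, a transmembrane collagen known from neurons (1.10 ± 0.34, adjusted p = 0.0368), the second probe of the fibrillar chain Col11a2 (0.50 ± 0.16, adjusted p = 0.0388) and the third of Col4a6 (0.53 ± 0.17, adjusted p = 0.0450). Col4a2 was lower in KO (−0.48 ± 0.15, adjusted p = 0.0480; all by limma). The other probes of Col25a1, Col11a2 and Col4a6 were not called. By class, 1 of 19 fibrillar and 2 of 17 basement membrane probes were called. By the labelled dye order 3 collagens were called, Col26a1 (1.30, adjusted p = 0.0106) and Col11a2 (0.58, adjusted p = 0.0170) among them, and Col4a2 gave −0.25 (adjusted p = 0.663, limma). With both disputed arrays left out all 6 stayed called. In 30 fits with 1 sample left out, Col9a2 was called in 30, Col26a1 in 29 (not without the fourth KO sample with erlotinib, adjusted p = 0.0513), Col25a1 in 18, Col11a2 in 17, Col4a6 in 11 and Col4a2 in 7 (limma). With run as a fixed block Col11a2 (adjusted p = 0.0749) and Col4a6 (adjusted p = 0.102) were not called, with run as a random block Col4a6 was not (adjusted p = 0.0575, limma), and the other calls held under both.

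Col9a2 shows the pattern in its samples. With PD153035 it measured 1.21, 1.08, 1.95, 1.19 and 1.91 in KO, against 0.21, −0.04, 0.49, 0.19 and 0.07 in WT. With erlotinib it measured 0.25, 1.62, 0.81 and 1.47 in KO, against −0.04, 0.46, −0.08, 0.18 and 0.60 in WT. With AG1478 it measured −0.29, −0.04, 1.53, 0.70, 2.38 and 0.39 in KO, against 0.10, 0.04, −0.36, −0.31 and −0.11 in WT. The genotypes are apart with PD153035 and overlap with the other inhibitors. By the labelled dye order the averaged difference was 0.75 (adjusted p = 0.146, limma). Col26a1 spanned −0.05 to 0.96 in KO with PD153035, against −2.10 to −0.50 in WT. It spanned −1.18 to 0.33 in KO with erlotinib, against −2.29 to −0.39 in WT, and −1.84 to −0.58 in KO with AG1478, against −2.99 to −0.40 in WT, with overlap in the last 2 of these 3.

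The collagens that anchor keratinocytes had positive differences that missed the threshold in this average, but the inhibitors differed. The second Col7a1 probe had means of 2.73 in KO and 0.70 in WT with erlotinib, and of 0.46 and 0.86 with PD153035. Over the 17 basement membrane probes the differences ran from −1.13 to 0.50 with PD153035. They ran from −0.75 to 1.81 with AG1478 and from −1.16 to 2.56 with erlotinib. In the average, Col17a1 gave 1.45 ± 0.53 (0.40 to 2.51, adjusted p = 0.0855) and 0.56 ± 0.43 (adjusted p = 0.501), and Col7a1 0.92 ± 0.36 (adjusted p = 0.116) and 0.81 ± 0.37 (adjusted p = 0.196, all by limma). Of 24 keratinocyte marker probes 3 were called higher in KO (Krt10, Trp63 and Dsp), and of 38 fibroblast marker probes 1 was called lower (Thy1), with a median of −0.31. All 13 melanocyte marker probes had positive differences, with a median of 0.74, and 2 for Dct were called (1.63 ± 0.41 and 1.81 ± 0.45). Of 13 endothelial marker probes 12 had negative differences, with a median of −0.41 and Eng called lower. Both called leukocyte marker probes were for Cd68 (−1.12 ± 0.16 and −0.86 ± 0.20), and the muscle marker Acta1 was called lower. Their part in the collagen differences was not tested. In the list of 17 measured genes whose products partner with basement membrane collagens, 38 probes were tested and 7 were higher and 1 lower in KO, where 2.98 percent of all probes were higher and 3.49 percent lower. They include plectin (Plec, 1.05 ± 0.18, adjusted p = 7.3e-05), dystonin (Dst, 1.02 ± 0.19), integrin alpha 6 (Itga6, 1.15 ± 0.25 and 0.88 ± 0.20), all of the hemidesmosome, the laminin chain Lama3 (0.94 ± 0.24) and perlecan (Hspg2, 0.86 ± 0.19 and 0.52 ± 0.14), while nidogen (Nid1), which links laminin to collagen IV, was lower (−1.13 ± 0.23).

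**Figure D3:**
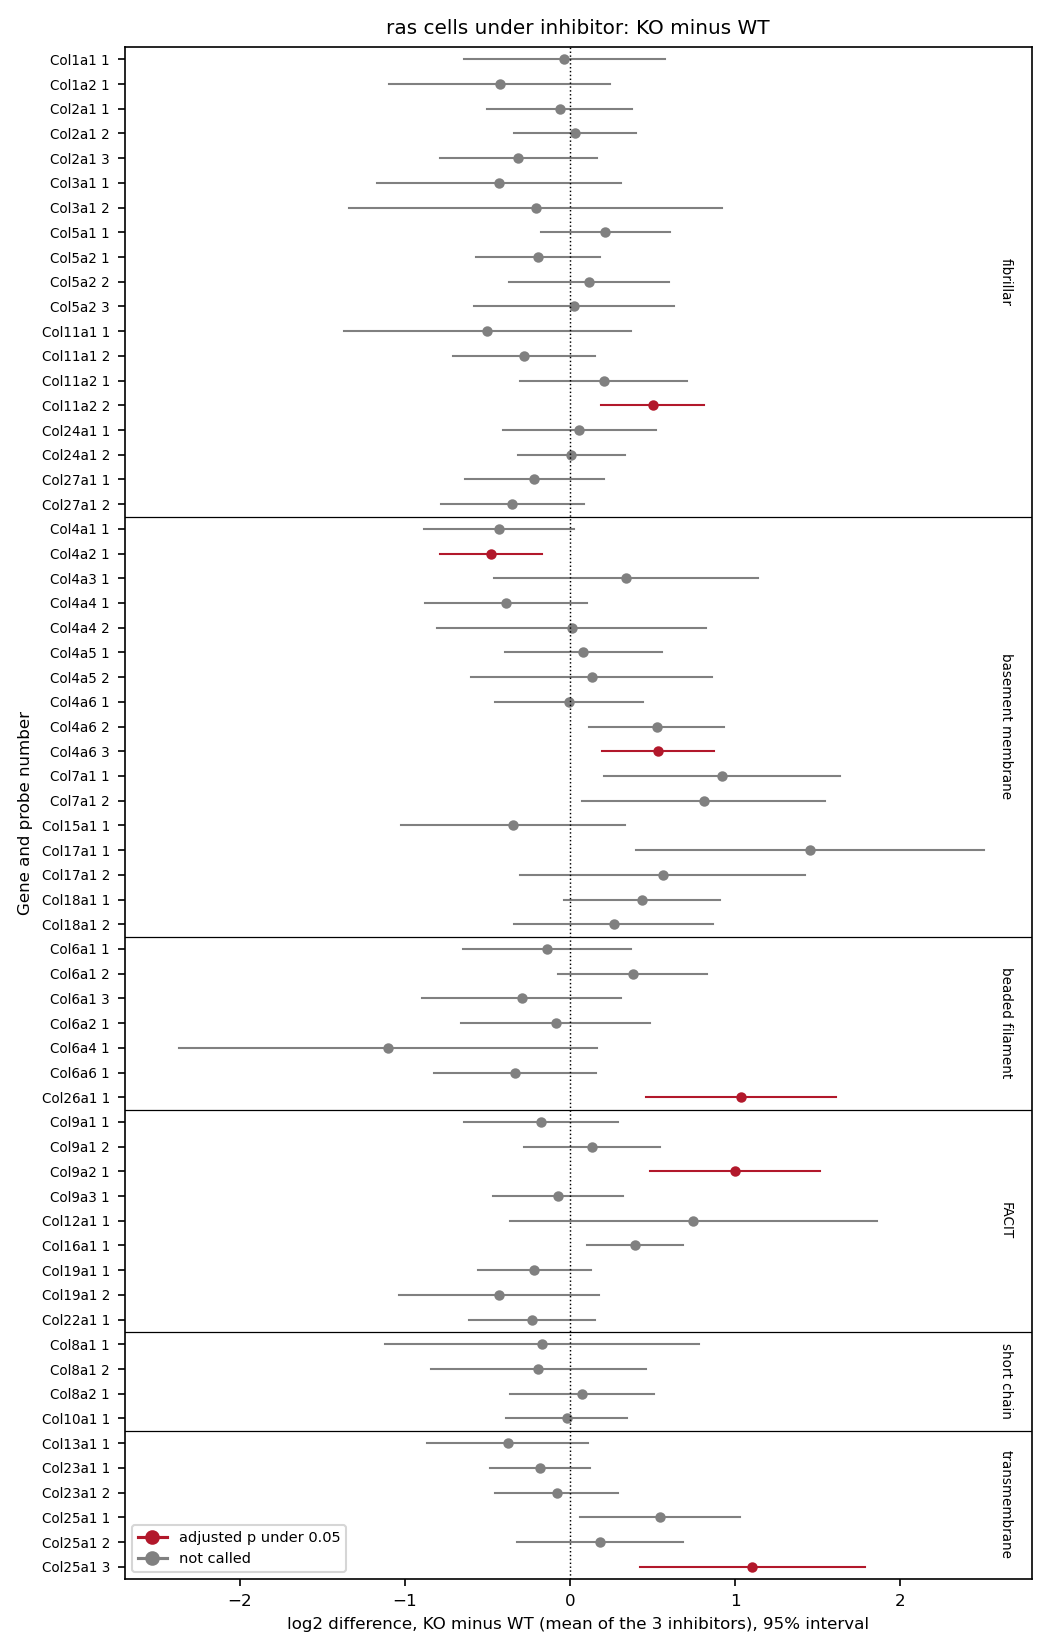
Difference in log2 ratio between KO and WT ras cells, averaged over the 3 inhibitors, for all 62 collagen probes by chain class; points are the fitted differences, lines their 95% intervals, red where the adjusted p was under 0.05 and grey otherwise. The 6 called probes lie between −0.48 and 1.10, and 5 of them are above 0.

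PD153035 in KO ras cells gave the most collagen calls of any comparison with untreated cells, 8 of 62 probes (12.9 percent), against 4.84 percent of all probes, with 4 lower and 4 higher (2.25 percent lower and 2.59 percent higher over all probes). The lower ones were Col4a2, Col18a1 and Col4a5 of the basement membrane zone and Col8a1, and the higher ones Col4a3, another type IV chain, the fibrillar Col11a2 and Col27a1, and Col25a1. Only 1 probe was called for each of Col18a1, Col4a5, Col8a1, Col11a2, Col27a1 and Col25a1, which have 2 or 3 probes. Col8a1, by its second probe, measured 1.52, 0.91, 1.38, 0.30 and 1.45 with PD153035, against 3.19, 3.88, 4.67, 4.21 and 3.43 in KO ras without inhibitor. The groups did not overlap (−2.76 ± 0.56, adjusted p = 0.00413, limma). Col18a1, by its first probe, measured 0.21, −0.56, 0.14, −0.48 and 0.22 with PD153035, against 1.07, 1.64, 1.12, 1.78 and 1.75 without. It too did not overlap (−1.57 ± 0.40, adjusted p = 0.0179, limma).

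The basement membrane chain Col4a2 had the smallest adjusted p, with the PD153035 values above set against −0.84, 0.03, 0.32, −1.69 and −0.70 in KO ras without inhibitor. One untreated sample lay among the treated ones, and the difference was −1.36 ± 0.27 (adjusted p = 0.00337, limma). The second Col4a5 probe measured −2.94, −1.30, −2.48, −1.01 and −1.06 with PD153035, against 1.71, 1.99 and 1.12 in the 3 run 3 arrays of KO ras without inhibitor and −1.86 and −0.86 in those of runs 6 and 5. The groups overlap, and the untreated samples well above the treated ones are the run 3 arrays (−2.18 ± 0.63, adjusted p = 0.0329, limma). The first Col4a5 probe gave −1.25 ± 0.40 (adjusted p = 0.0545, limma). The second Col11a2 probe measured 1.14, 0.97, 1.07, 0.19 and 1.60 with PD153035, against −0.08, −0.90, 0.34, 0.06 and −0.65 without (1.24 ± 0.27, adjusted p = 0.00558, limma). One treated sample lay within the untreated range. The third Col25a1 probe measured 3.02, 2.62, 3.02, 1.51 and 1.33 with PD153035, against −0.14, −1.22 and −1.31 in the run 3 arrays of KO ras without inhibitor and 2.56 and 1.57 in those of runs 6 and 5 (2.01 ± 0.59, adjusted p = 0.0345, limma). The arrays of runs 6 and 5 lay within the treated range, and the run 3 arrays below it. Col4a3 was higher with PD153035 by 2.24 ± 0.69 (adjusted p = 0.0443) and the first Col27a1 probe by 1.16 ± 0.36 (adjusted p = 0.0496, both by limma), and for each of these genes 1 KO ras sample lay within the range of the treated samples. Of the partner and enzyme genes, PD153035 called no basement membrane partner, prolyl 3-hydroxylase P3h1 higher (1.11 ± 0.27), and the collagen-binding integrin subunit Itgb1 (−1.67 ± 0.33), the inhibitor of matrix metalloproteinases Timp1 (−2.56 ± 0.67) and stromelysin Mmp3 lower.

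These 2 groups share no run, so run and treatment cannot be told apart, and with run as a random block none of the 8 was called (adjusted p = 0.310 for Col4a2 and 0.454 for Col8a1, limma). Leaving out 1 of the 10 samples gave 3 to 12 collagen calls, the fewest without the second PD153035 sample and the most without the fifth KO ras sample. The share of all probes called in these fits is not given, so the range is not by itself a result on the collagens. Col4a2, Col8a1 and Col11a2 were called in each of these fits. Of the others Col18a1 was called in 8 of 10, Col4a5 and Col25a1 in 4, and Col4a3 and Col27a1 in 2 (adjusted p up to 0.138, limma). Of 38 fibroblast marker probes 4 were called lower with PD153035 (3 for Vim and 1 for Fbln1), with a median of −0.61, and sample means ran from −1.40 to −0.69 with PD153035 and from −1.31 to 0.05 in KO ras. Of 24 keratinocyte marker probes 2 were called lower (Trp63 and Sfn), with a median of −0.50. All 13 melanocyte marker probes had negative differences, with a median of −0.77 and none called (limma), while the endothelial marker Emcn was called lower and the leukocyte marker Cd3g higher. The part of these markers was not tested. The difference between this effect and that in WT cells, added after the data were seen, was not called for any collagen. It was called for 0.0933 percent of all probes (limma). Of 38 fibroblast marker probes 2 for Vim were called, with differences of effects of −3.54 ± 0.76 and −3.24 ± 0.72. In all, 8 of these marker probes were positive and 30 negative, with a median of −0.82, and their part was not tested. An unadjusted p under 0.05 was seen for 15 of 62 collagen probes, and for 2824 of all 27854. For Col4a2 the difference of effects was −1.15 ± 0.38 (−1.90 to −0.39, adjusted p = 0.255) and for Col8a1 −1.88 ± 0.79 (−3.47 to −0.29, adjusted p = 0.410, limma).

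**Figure D4:**
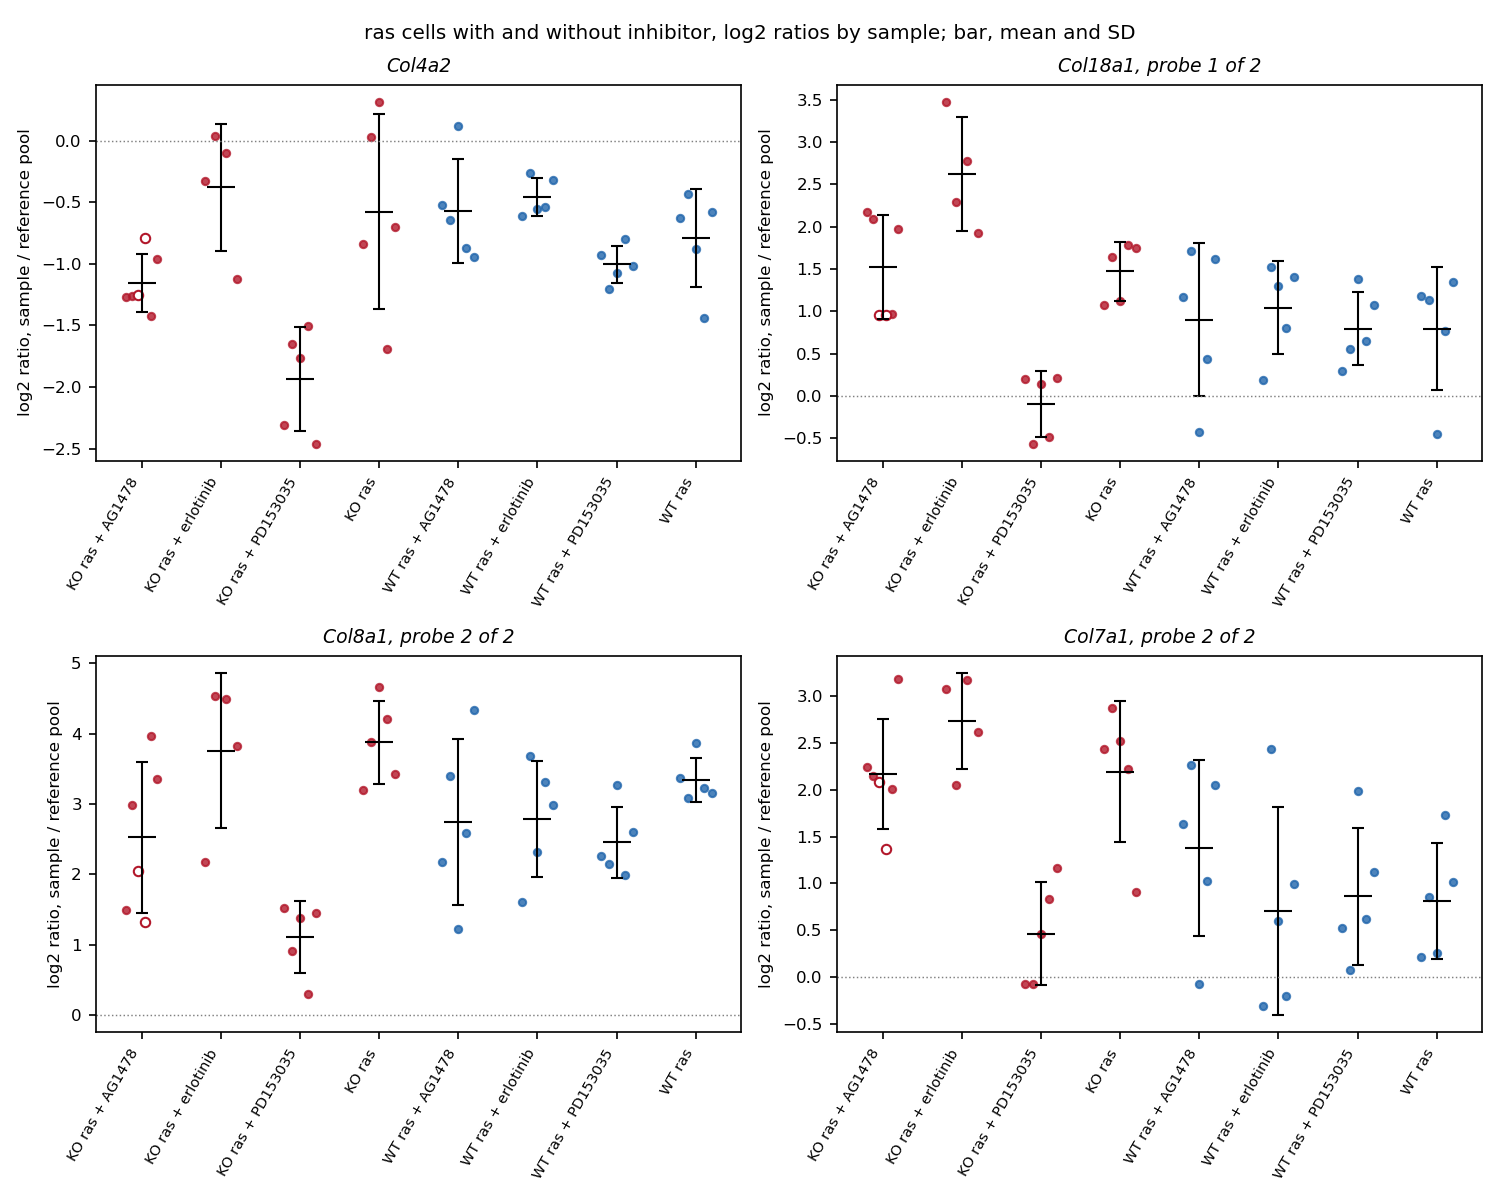
Log2 ratios of Col4a2, Col18a1 (probe 1 of 2), Col8a1 (probe 2 of 2) and Col7a1 (probe 2 of 2) in ras cells by group; points are samples, open points the 2 arrays of disputed dye order, and bars the mean with the SD. KO ras with PD153035 is the lowest group for each of the 4, with means of −1.94, −0.10, 1.11 and 0.46.

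The other inhibitor groups showed few calls. In WT mock cells no collagen and no other probe was called with any of the 3 inhibitors (limma). An unadjusted p under 0.05 was seen for 2, 2 and 0 of 62 collagen probes with AG1478, erlotinib and PD153035. Over all probes it was seen for 1802 of 27812, 885 of 27910 and 956 of 27893. In WT ras cells AG1478 was called for the second Col18a1 probe (1.94 percent of all probes), at −2.79, −1.41, 0, 2.38 and −0.64 with AG1478, against 0.53, 1.35, 0.73, 2.19 and 1.92 in WT ras. The groups overlap (−1.84 ± 0.52, adjusted p = 0.0471, limma), and the call held in 3 of 10 fits with 1 sample left out (adjusted p up to 0.244, without the first AG1478 sample). They share no run, and with run as a random block the probe was not called (−1.76, adjusted p = 0.427, limma). The leukocyte markers Cd68 (higher) and Cd3g (lower) were called too, and their part was not tested. The effect of AG1478 on this probe differed between genotypes by 2.87 ± 0.72 (KO minus WT, adjusted p = 0.0394, limma; 0.791 percent of all probes; a comparison added after the data were seen). By the labelled dye order this was 2.75 (adjusted p = 0.0363), and with run as a random block 1.96 (adjusted p = 0.563, limma). It held in 10 of 21 fits with 1 sample left out (2.34 to 3.44, adjusted p up to 0.118, limma). The erlotinib effect, compared between genotypes in the same way, gave no collagen call, where 0.0653 percent of all probes were called (limma). Of 62 collagen probes 7 had an unadjusted p under 0.05, as did 3113 of all 27565. Erlotinib in WT ras cells was called for Col6a2 (3.41 percent of all probes), at 0.02, −2.18, −0.45, −0.31 and −1.84 with erlotinib, against −1.40, −1.96, −3.00, −3.12 and −3.53 in WT ras, with overlap (1.65 ± 0.49, adjusted p = 0.0470, limma). It held in 4 of 10 such fits (adjusted p up to 0.157, without the first erlotinib sample, limma). These groups share no run either, and with run as a random block it was not called (1.78, adjusted p = 0.283, limma). The melanocyte marker Mitf was called higher, and its part was not tested.

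PD153035 in WT ras cells gave no collagen call, where 0.66 percent of all probes were called (limma). Col4a3 had the smallest adjusted p of the collagens (2.55 ± 0.69, adjusted p = 0.0586, limma). An unadjusted p under 0.05 was seen for 10 of 62 collagen probes, and for 3410 of all 27893. In KO ras cells AG1478 gave no collagen call (0.229 percent of all probes) and erlotinib none (0.0543 percent, limma). An unadjusted p under 0.05 was seen for 12 of 62 collagen probes with AG1478, and for 3951 of all 27949. With erlotinib it was seen for 8 collagen probes, and for 3276 of all 27641. By the labelled dye order AG1478 in KO ras gave 6 collagen calls. The mean of the 3 inhibitors gave no collagen call in WT mock, WT ras or KO ras, also by the labelled dye order. Of all probes 0, 2.19 and 0.261 percent were called (limma). An unadjusted p under 0.05 was seen for 2, 10 and 17 of 62 collagen probes. Over all probes it was seen for 1441 of 27786, 4751 of 27660 and 4584 of 27582. The comparisons within a cell type share their untreated samples. In ras cells the treated and untreated groups share a run only for erlotinib in KO.

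The inhibitors were also compared with each other at the same dose and time, in 9 pairs, which gave 9 collagen calls in 3 pairs (17 by the labelled dye order). Erlotinib minus PD153035 in KO ras cells gave 6 of them, 5 higher and 1 lower with erlotinib (5.82 percent of all probes, 3.47 percent higher and 2.35 percent lower). The first Col18a1 probe was higher with erlotinib, 3.48, 2.29, 2.78 and 1.92, against the PD153035 values of −0.56 to 0.22 given above (2.73 ± 0.43, adjusted p = 1e-04, limma). Col4a2 measured −0.33, 0.04, −0.10 and −1.12 with erlotinib, against −2.46 to −1.50 with PD153035 (1.57 ± 0.28, adjusted p = 0.000387, limma). Col8a1 gave 2.67 ± 0.59 (adjusted p = 0.00401) and 2.84 ± 0.87 (adjusted p = 0.0390), so here both of its probes were called. The second Col7a1 probe measured 3.08, 2.06, 3.18 and 2.62 with erlotinib, against −0.08, −0.08, 0.46, 0.83 and 1.17 with PD153035 (2.29 ± 0.67, adjusted p = 0.0309, limma). The first Col27a1 probe was lower with erlotinib (−1.20 ± 0.38, adjusted p = 0.0498). None of the 6, which were picked by their p, overlapped between the groups, and overlap was not counted over all probes. The groups share no run, and with run as a random block the adjusted p was 0.0693 for Col4a2, 0.117 for Col18a1 and 0.295 or more for the others (limma). In 9 fits with 1 sample left out, Col18a1, Col4a2 and the second Col8a1 probe were called in all 9, Col7a1 in 3, and the first Col8a1 probe and Col27a1 in 1 each (adjusted p up to 0.141, limma). Of 38 fibroblast marker probes 3 were called higher and 1 lower with erlotinib, with a median of 0.02, and of 24 keratinocyte marker probes 2 were called higher. All 13 melanocyte marker probes had positive differences, with a median of 0.96 and Sox10 called. Acta2 of the muscle list was called higher, and Myod1 of the same list, the leukocyte marker Cd3g and the endothelial marker Esam lower. Their part was not tested.

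AG1478 minus PD153035 in KO ras cells lies within run 8 and gave 2 calls (0.745 percent of all probes). The first Col18a1 probe measured 2.17, 2.08, 0.96, 0.96, 0.97 and 1.97 with AG1478, and all 6 lay above the PD153035 samples (1.60 ± 0.39, adjusted p = 0.0284, limma). The first Col4a5 probe measured 0.76, 0.42, 1.77, 1.68, 2.03 and 1.52 with AG1478, against −0.16, −0.85, −0.36, 0.10 and −0.05 with PD153035 (1.63 ± 0.38, adjusted p = 0.0232, limma). Both rest partly on the 2 arrays of disputed dye order. By the labelled order Col18a1 gave 0.96 (adjusted p = 0.188) and Col4a5 0.48 (adjusted p = 0.557). With both arrays left out they gave 1.81 (adjusted p = 0.0274) and 1.47 (adjusted p = 0.103, limma). With 1 sample left out Col4a5 was called in 7 of 11 fits and Col18a1 in 5, and without the second PD153035 sample the adjusted p was 0.0990 for Col4a5 and 0.114 for Col18a1 (limma). The fibroblast marker Fbln1 was called higher with AG1478 by 2 probes, and 12 of 13 melanocyte marker probes had positive differences, with a median of 0.58 and none called (limma). Their part was not tested. In WT ras cells the same pair gave 1 call (1.29 percent), Col4a3, at −1.25, −2.45, −0.58, −0.98 and −2.50 with AG1478, against 2.12, 2.03, 0.15, 1.94 and 0.83 with PD153035, without overlap (−2.97 ± 0.69, adjusted p = 0.0213, limma). It was called in 5 of 10 fits with 1 sample left out (adjusted p up to 0.0819, without the second PD153035 sample, limma). The AG1478 samples are from runs 7 and 8 and the PD153035 samples from run 8, and the call was lost with run as a fixed block (−2.25, adjusted p = 0.249) and as a random block (−2.67, adjusted p = 0.136, limma). Within run 8 Col4a3 stood at −0.58 and −0.98 with AG1478, against the 0.15 to 2.12 with PD153035. The keratinocyte markers Krt16 and Krt17 and the leukocyte marker Tyrobp were called higher with AG1478, and their part was not tested.

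The other 6 pairs gave no collagen call (limma). In KO ras, AG1478 minus erlotinib called 0.243 percent of all probes. An unadjusted p under 0.05 was seen there for 6 of 62 collagen probes, and for 3280 of all 27601. In WT ras, AG1478 minus erlotinib called 0.897 percent and erlotinib minus PD153035 0.176 percent. An unadjusted p under 0.05 was seen for 9 and 5 collagen probes, and for 3754 of all 27750 and 2520 of all 27913. In WT mock no probe was called in any pair, with 1, 0 and 1 collagens at an unadjusted p under 0.05. Over all probes this was seen for 865 of 27909, 854 of 27894 and 323 of 27992. The interval of a pair's difference reached, at the median collagen probe, 0.80 to 0.89 to either side on the log2 scale, so a missing call does not show that the compounds acted alike.

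Among the genes that act on collagens, erlotinib minus PD153035 in KO ras had the most calls, in groups that share no run. Over all probes 3.47 percent were higher and 2.35 percent lower in this comparison. Of 37 probes for enzymes and chaperones of collagen making, 4 were higher with erlotinib: the prolyl isomerase Ppib (1.25 ± 0.26), the prolyl 4-hydroxylase subunit P4ha2 (0.95 ± 0.28), the collagen chaperone Serpinh1 (0.90 ± 0.28) and the procollagen C-proteinase Bmp1 (1.69 ± 0.41). P3h1 (−1.30 ± 0.29) and the lysyl oxidase Loxl3 (−1.57 ± 0.48) were lower. Of 26 probes for collagen receptors and collagen-degrading enzymes and their inhibitors 8 were higher with erlotinib, among them Mmp13, Mmp3, Mmp10, Mmp9, Timp1 and Itgb1. Of 38 probes for basement membrane partners 6 were higher, for Itga3, Itga6 (2 probes), Lama3, Lamb3 and Agrn. Ras in KO called none of the collagen-making genes or basement membrane partners, and 1 probe of the collagen receptor Ddr1 was called lower (−2.75 ± 0.64, adjusted p = 0.0188, limma).

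How the collagens varied together was described by correlation over the 62 samples, after group means and dye order were taken out. The probes share arrays and the reference. Run was not taken out, and the second Col3a1 probe was apart between runs in KO ras. Probes of the same gene had a median r of 0.31 over 29 pairs, 7 of them above 0.5 and 2 below 0, and probes of different genes a median of 0.01 over 1862 pairs. The 2 Col18a1 probes correlated at 0.12, the 2 Col8a1 probes at 0.14 and the first and second Col6a1 probes at 0.23, so results on 1 probe of these genes are not results on the gene. The 2 Col17a1 probes reached 0.60 and the first and the third Col6a1 probe 0.73. Collagen I, III and VI chains varied together: Col1a2 with Col1a1 at 0.77, with the third Col6a1 probe at 0.77 and with the second Col3a1 probe at 0.75. The paired type IV genes Col4a1 and Col4a2 reached 0.52, and Col4a5 with Col4a6 between −0.23 and 0.26 over their 6 probe pairs. The highest value of all was that of Col4a3 with the beaded filament chain Col6a4, at 0.81, and the first Col18a1 probe with the second Col7a1 probe had 0.76.

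Deviations of the same chains also went with the mean of the fibroblast markers. The second Col3a1 probe reached 0.84, Col1a2 0.82, Col1a1 0.78, the third Col6a1 probe 0.76 and Col4a1 0.69. Col16a1 stood at 0.08, and the Col17a1 probes at −0.35 and 0.19. The lowest values were those of Col12a1 at −0.67 and Col9a2 at −0.62. In bulk RNA, fewer cells of a type and less RNA per cell cannot be told apart. Sample means of the other marker lists ran from 0.69 to 3.92 for melanocytes, −2.88 to −0.14 for endothelial cells, −2.37 to −0.57 for leukocytes and −1.47 to 0.21 for muscle.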

How the data were processed

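Two-colour oligonucleotide arrays of 62 samples (63 arrays) were used as the log2 ratios that the authors deposited. The log base, the background correction and the normalization are not stated by the labels, and base 2 is assumed because of the range of the values. Array medians lay between −0.072 and 0.067, and 24860 to 28047 probes had a value. Ratios were read as sample over reference pool, since 24 keratinocyte marker probes then lie above 21 markers of the pool by 1.61 to 6.51 on every array; 2 arrays run against their label. The dye-swapped arrays of 1 WT mock sample were averaged. Groups were fitted with a dye term, per probe, with moderated variances (limma 3.58.1, statmod 1.5.0 and R 4.3.3; Python 3.11.15 and matplotlib 3.10.9 for figures). A probe was tested with values on at least 60 percent of the arrays of each group, and p-values were adjusted over all tested probes (Benjamini-Hochberg, 0.05). Errors beside differences are SE and intervals are 95%. The 33 comparisons, 3 of them added later, were also run under other dye, run, scaling, filter and weighting settings, and the fit was tested on simulated data. Named are all collagens called in any comparison, chosen skin collagens (types I, III, IV, V, VII, XVII and XVIII), and part of the called genes of the lists. Other called list genes, such as P4hb, P3h2 and Mia3, and some further calls of named list genes are not given. The likeness pairs were chosen after their values were seen. The collagens and lists were chosen with earlier results of these data known. The number of arrays limits the precision.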

Additional observations from a re-analysis of the deposited data

Results flagged for a closer look

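Among 20 collagen probes tested in their groups of 4 to 6 samples (240 groups in all), 15 groups held 1 sample far from the others by Dixon's test. Chance alone marks about 1 in 20 groups. The fifth sample of WT mock with PD153035 stood apart for 4 probes: Col17a1, the hemidesmosomal collagen, at 6.80 by its first probe, with the others at 4.32 to 5.02, the second Col3a1 probe at −1.18 (others −5.81 to −4.84), Col1a2 at −0.26 (others −2.63 to −2.44) and the second Col7a1 probe at 4.14 (others 0.49 to 1.17). The fifth sample of WT mock with AG1478 stood apart for the second Col7a1 probe, at 4.43 (others 0.51 to 1.46), and the second Col17a1 probe, at 7.87 (others 4.26 to 5.17).

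The remaining samples were single cases. In KO ras with AG1478 the sixth sample had −1.37 for the second Col3a1 probe (others −5.48 to −4.14). In KO ras with erlotinib the fourth had 5.12 for the first Col17a1 probe (others 8.33 to 8.79). In WT ras the fifth had −2.08 for Col5a1 (others −0.57 to 0.02), the fourth with AG1478 had 0.15 for Col5a1 (others −0.82 to −0.59), the second with erlotinib had −2.26 for Col1a1 (others −0.92 to −0.55), and the fifth with PD153035 had 1.91 for the second Col18a1 probe (others 0.20 to 0.53). In WT mock the third had −1.59 for the first Col6a1 probe (others −2.33 to −2.23), the fifth had −0.12 for Col4a1 (others −1.38 to −1.20), and the fourth with erlotinib had −2.31 for Col26a1 (others −1.17 to −1.05).

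The AG1478 effect on the second Col18a1 probe differed between genotypes by 2.87 (KO minus WT, adjusted p = 0.0394, limma), while the gene's first probe gave −0.08 (adjusted p = 0.961).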

How the results depend on the processing

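Depth is unknown for these ratios, and the number of arrays limits the precision. Of the values of single collagen probes under the alternatives, 598 kept their direction and their side of the threshold, 328 kept the direction and lost the call, and none reversed. The setting with arrays of low correlation left out was chosen after the data were seen. Counts below are of collagen probes called, with the reported count in brackets, and causes were not tested. The share of all probes called under each setting is not given. A count that rises or falls is therefore not by itself a result on the collagens.

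Without a dye term the counts were 0 (1) for KO minus WT in ras with erlotinib, 0 (1) for AG1478 in WT ras, 0 (1) for erlotinib in WT ras and 0 (1) for the AG1478 effect between genotypes. With forward arrays only they were 3 (0) for KO minus WT in mock, 0 (1) with erlotinib, 2 (6) for the mean of the inhibitors in KO minus WT, 1 (0) for their mean in WT ras, 7 (0) for their mean in KO ras, 2 (1) for the AG1478 effect, 1 (0) for the erlotinib effect and 4 (9) for the pairs of inhibitors. With the repeat 1 arrays kept apart they were 1 (0) for KO minus WT in mock and 0 (1) for AG1478 in WT ras. With median centring KO minus WT with PD153035 gave 1 (0). With quantile normalization KO minus WT gave 1 (0) in mock, 2 (1) in ras, 2 (0) with AG1478, 0 (1) with erlotinib and 3 (0) with PD153035. It gave 0 (1) for AG1478 and 1 (0) for PD153035 in WT ras, 1 (0) for AG1478, 15 (8) for PD153035 and 6 (0) for the mean in KO ras, and 1 (0) for the PD153035 effect. With only probes that have a value on every array KO minus WT gave 0 (1) in ras, 1 (0) with PD153035 and 3 (6) for the mean, AG1478 in WT ras 0 (1) and the AG1478 effect 0 (1). Without a filter KO minus WT with erlotinib gave 0 (1).

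With only the groups compared in the fit, KO minus WT gave 0 (1) in ras, 0 (1) with erlotinib and 6 (0) with PD153035. Ras in KO gave 0 (3), AG1478 in WT ras 0 (1), erlotinib in WT ras 0 (1), PD153035 in KO ras 2 (8) and the AG1478 effect 0 (1). With probes averaged by gene KO minus WT gave 0 (1) in ras, 2 (0) with PD153035 and 3 (6) for the mean, AG1478 in WT ras 0 (1), PD153035 in KO ras 5 (8), the AG1478 effect 0 (1) and the pairs 5 (9). With run as a fixed block KO minus WT gave 3 (0) with AG1478, 2 (1) with erlotinib and 4 (0) with PD153035, and ras in WT 1 (0). With run as a random block (correlation 0.260) KO minus WT gave 0 (1) in ras, 2 (1) with erlotinib and 2 (0) with PD153035, ras 1 (0) in WT and 0 (3) in KO, AG1478 in WT ras 0 (1), erlotinib in WT ras 0 (1), PD153035 in KO ras 0 (8), the AG1478 effect 0 (1) and the pairs 3 (9).

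With sign and dye by the label KO minus WT gave 4 (0) with AG1478, 0 (1) with erlotinib and 3 (6) for the mean. Ras in KO gave 1 (3), AG1478 in WT ras 0 (1), erlotinib in WT ras 0 (1), AG1478 in KO ras 6 (0), PD153035 in KO ras 3 (8) and the pairs 17 (9). With the dye term alone by the label KO minus WT with erlotinib, AG1478 in WT ras, erlotinib in WT ras and the AG1478 effect each gave 0 (1). With both disputed arrays left out KO minus WT with erlotinib, AG1478 in WT ras and erlotinib in WT ras each gave 0 (1). With array weights, which ran from 0.315 to 5.68, KO minus WT gave 12 (0) in mock, 9 (1) in ras, 1 (0) with AG1478, 8 (1) with erlotinib, 10 (0) with PD153035 and 11 (6) for the mean. Ras gave 1 (0) in WT and its difference between genotypes 1 (0). AG1478 gave 2 (1) and PD153035 2 (0) in WT ras, AG1478 13 (0), erlotinib 18 (0) and PD153035 27 (8) in KO ras, and the means 1 (0) in WT mock, 2 (0) in WT ras and 21 (0) in KO ras. The effects between genotypes gave 7 (1) for AG1478, 9 (0) for erlotinib and 14 (0) for PD153035, and the pairs 42 (9). With arrays of low correlation left out KO minus WT gave 2 (0) in mock, 0 (1) in ras, 0 (1) with erlotinib and 1 (0) with PD153035, AG1478 in WT ras 2 (1), erlotinib in WT ras 0 (1), the mean in WT ras 1 (0) and the AG1478 effect 0 (1).

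Replicate numbers did not pair the samples (for KO minus WT in mock, same-numbered samples correlated at −0.30 to 0.21). With the replicate block ras in KO gave 1 (3), erlotinib in WT ras 0 (1) and the mean of the inhibitors in KO minus WT 4 (6). Both calls of AG1478 minus PD153035 in KO ras were lost (adjusted p = 0.0654 for Col4a5 and 0.0923 for Col18a1, limma), while the pairs together again gave 9 (9). Over all these settings ras in KO gave 0 to 4 (3), and not every small change of a count is listed here.

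Leaving out each sample in turn gave 0 to 1 calls for KO minus WT in mock (1 without the second KO mock sample), 0 to 5 in ras (5 without the fifth KO ras sample), 0 to 1 with AG1478, 0 to 1 with erlotinib, 0 to 2 with PD153035 and 2 to 7 for the mean. It gave 0 to 0 for ras in WT, 1 to 3 for ras in KO, 0 to 0 for the difference of ras effects, and 0 to 0 for each inhibitor and their mean in WT mock. It gave 0 to 1 for each inhibitor and for the mean in WT ras, 0 to 1 for AG1478 and for erlotinib, 3 to 12 for PD153035 and 0 to 6 for the mean in KO ras, and 0 to 2, 0 to 1 and 0 to 0 for the AG1478, erlotinib and PD153035 effects between genotypes. For the pairs of inhibitors it was run on the called probes only, not on the summed count.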

Other observations

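In KO ras cells without inhibitor the second Col3a1 probe and Col9a2 were apart between the 3 arrays of run 3 and the arrays of runs 5 and 6. The second Col3a1 probe measured −1.75, −1.81 and −0.92 in run 3, and −6.06 and −6.43 in the others. Col9a2, a cartilage FACIT chain, measured −1.02, −0.66 and −0.81 in run 3, and 2.06 and 2.12 in the others. These probes were picked after their values were seen, and the difference between runs was not tested.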
